A study of Mus musculus with 18 samples.

Results

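The genes described here are 10 genes of the bone morphogenetic protein (Bmp) pathway in embryonic mouse lungs. They are the ligands Bmp4, Bmp5 and Bmp7, the secreted antagonists Nog and Grem1, the inhibitory Smads Smad6 and Smad7, and the target genes Id1, Id2 and Id3. They were taken by symbol from the 23420 genes listed in each of 3 experiments, and all 10 passed the filter on low values in each experiment. The study asked how the Wnt5a ligand and the membrane proteins Vangl1 and Vangl2, which act in planar cell polarity, set the position and direction of lung branches. The RNA of lungs was sequenced in bulk in 18 libraries, with 3 mutant and 3 control libraries in each experiment.

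In the Vangl1/2 experiment, mutant lungs were Vangl1-/-; Vangl2-/- and control lungs were Vangl1-/-, both at stage E12.5 (days post coitus, dpc). By these labels all 6 libraries of that experiment were Vangl1-/- and the groups differed in Vangl2. The Vangl1 allele of the study is a gene trap (Vangl1gt), which can leave transcripts that are still counted. The floxed allele of Vangl2 had been deleted with Sox2-Cre, which acts in the whole embryo, so that the loss was not limited to the lung. In the Dermo1Cre experiment, Wnt5af/f; Dermo1Cre lungs were compared with Wnt5af/+; Dermo1Cre lungs at E12.5, and Dermo1Cre (Twist2) acts in the mesenchyme. In the Sox9Cre experiment, Wnt5af/f; Sox9Cre lungs were compared with Wnt5af/+; Sox9Cre lungs at E13.5, and Sox9Cre acts in the epithelium after branching has started. The controls of both Wnt5a experiments carried Cre and 1 floxed allele of Wnt5a. How many embryos went into a library is not given in the sources used here, so the p-values measure the spread between these samples, which may be technical.

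The libraries held between 15945393 and 19814346 reads on genes. Values are normalized counts, which are gene counts divided by a size factor per library, and size factors were computed within each experiment. Vangl2 was at 79.8 to 89.6 normalized counts in Vangl1-/-; Vangl2-/- lungs and 277 to 406 in their controls, and fell to 0.257 of the control level (limma, adjusted p = 0.0318). Vangl1 was at 113 to 219 in the controls and 239 to 274 in the mutants, without overlap (1.57-fold, limma, adjusted p = 0.233), so its transcript was present in all 6 libraries. Wnt5a overlapped between groups in both Wnt5a experiments. With Dermo1Cre it was at 317, 436 and 230 in mutants against 430 to 489, and overlapped through mutant replicate 2 alone. Its level there was 0.684 of that in controls (limma, unadjusted p = 0.0157, adjusted p = 0.406). With Sox9Cre it was at 362 to 448 in mutants against 426 to 473, a level of 0.923 of that in controls (adjusted p = 1.0). Counts over the whole gene do not show whether the floxed part was deleted. The lung markers Nkx2-1, Tbx4 and Foxf1 were at 2100 normalized counts or more in each library. Control replicate 2 of the Vangl1/2 experiment stood apart from the other controls. On the first principal component of all genes tested it lay at 17.0, near the mutants (15.1 to 21.5) and far from control replicates 1 and 3 (-30.1 and -44.7). The summed ribosomal protein genes were 780886 in it, 1236779 and 1384162 in the other controls, and 716668 to 802866 in the mutants. In the Wnt5a experiments, which were scaled separately, the sums were 622829 to 680844 with Dermo1Cre and 654225 to 736205 with Sox9Cre. Leaving out control replicate 2 of the Vangl1/2 experiment keeps its control replicates 1 and 3, which had the highest sums of the 18 libraries. In that experiment the log2 differences of genes also followed their exon length (Spearman's rho 0.702 across 14195 genes, which are not independent replicates), against 0.253 with Dermo1Cre and -0.03 with Sox9Cre. For the 10 genes, results of the Vangl1/2 experiment are therefore given with and without control replicate 2, and with the length trend removed.

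Bmp ligands are secreted growth factors that bind paired type I and type II receptors, which phosphorylate Smad1, Smad5 and Smad9. These Smads enter the nucleus with Smad4 and turn on target genes, among them the Id genes and the inhibitory Smads, which feed back on the receptors and on receptor-activated Smads. In the embryonic lung, Bmp4 is known for its expression at the tips of growing buds and in the mesenchyme around them, and secreted antagonists such as Noggin and Gremlin limit where the ligands act.

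Promoter sequences of Id2, Id3 and Smad6 are shown because these are the target genes of the pathway with an entry in RefSeq's promoter table (GRCm38.p6), which held an entry for 6 of the 10 genes. Each stretch has 260 bases, 250 before the start of the transcript and 10 after it. The starts are those of the promoter table. For Id2 and Id3 they lie inside the gene positions given further below, and so do the printed stretches. Capitals mark the matches to 3 motifs searched on both strands that Smad proteins are known to bind: GTCTAGAC, GGCGCC and CAGAC, whose other strand reads GTCTG. Of 32851 promoters of 300 bases, 0.213% held GTCTAGAC, 11.9% GGCGCC and 49.6% CAGAC. None of these motifs lies within another.
Id2 promoter, chr12:25096083-25096342, minus strand: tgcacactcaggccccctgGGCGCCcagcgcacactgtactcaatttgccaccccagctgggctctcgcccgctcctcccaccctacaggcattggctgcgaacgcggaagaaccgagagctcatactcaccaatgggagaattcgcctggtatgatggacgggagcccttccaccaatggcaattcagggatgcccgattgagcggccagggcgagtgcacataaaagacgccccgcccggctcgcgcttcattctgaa
Id3 promoter, chr4:136143572-136143831, plus strand: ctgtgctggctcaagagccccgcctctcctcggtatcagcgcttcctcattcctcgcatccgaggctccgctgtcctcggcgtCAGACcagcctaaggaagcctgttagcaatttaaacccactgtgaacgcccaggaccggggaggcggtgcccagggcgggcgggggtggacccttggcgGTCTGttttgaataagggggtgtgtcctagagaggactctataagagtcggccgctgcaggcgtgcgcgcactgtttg
Smad6 promoter, chr9:64022050-64022309, minus strand: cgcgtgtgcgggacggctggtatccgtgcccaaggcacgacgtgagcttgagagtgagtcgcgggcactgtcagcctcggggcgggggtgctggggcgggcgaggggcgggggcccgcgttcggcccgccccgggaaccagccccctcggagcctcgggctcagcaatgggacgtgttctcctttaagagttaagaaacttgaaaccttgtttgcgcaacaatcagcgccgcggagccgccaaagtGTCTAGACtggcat
The Smad6 promoter held the palindrome GTCTAGAC once, which starts at base 247 of the stretch, at the start of the transcript. The Id2 promoter held GGCGCC once, and the Id3 promoter held CAGAC or its other strand in 2 places. Matches describe these letters and do not show binding.

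None of the 10 genes passed an adjusted p of 0.05 in any experiment. Over all genes tested by limma with Benjamini-Hochberg adjustment, 0.00699% passed in the Vangl1/2 experiment, 0.014% with Dermo1Cre (0.007% higher and 0.007% lower) and 0.0% with Sox9Cre. At an unadjusted p under 0.05, 0 of the 10 genes stood out in the Vangl1/2 experiment (20.5% of all genes tested), 1 with Dermo1Cre (Bmp7, against 10.2%) and 0 with Sox9Cre (3.9%). The control and mutant libraries did not overlap for Bmp7 and Nog in the Vangl1/2 experiment (2 of 10, both higher, against 22.3% of all genes, 13.6% higher and 8.68% lower). They also did not overlap for Bmp7 and Smad6 with Dermo1Cre (2 of 10, both lower, against 15.6%, 7.65% higher and 7.92% lower), and overlapped for all 10 with Sox9Cre (against 8.78% without overlap, 4.42% higher and 4.36% lower). With 3 libraries against 3, an exact permutation test of a single gene cannot give a p below 0.1. In bulk RNA, fewer cells of a type and less RNA per cell cannot be told apart.

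**Figure D1:**
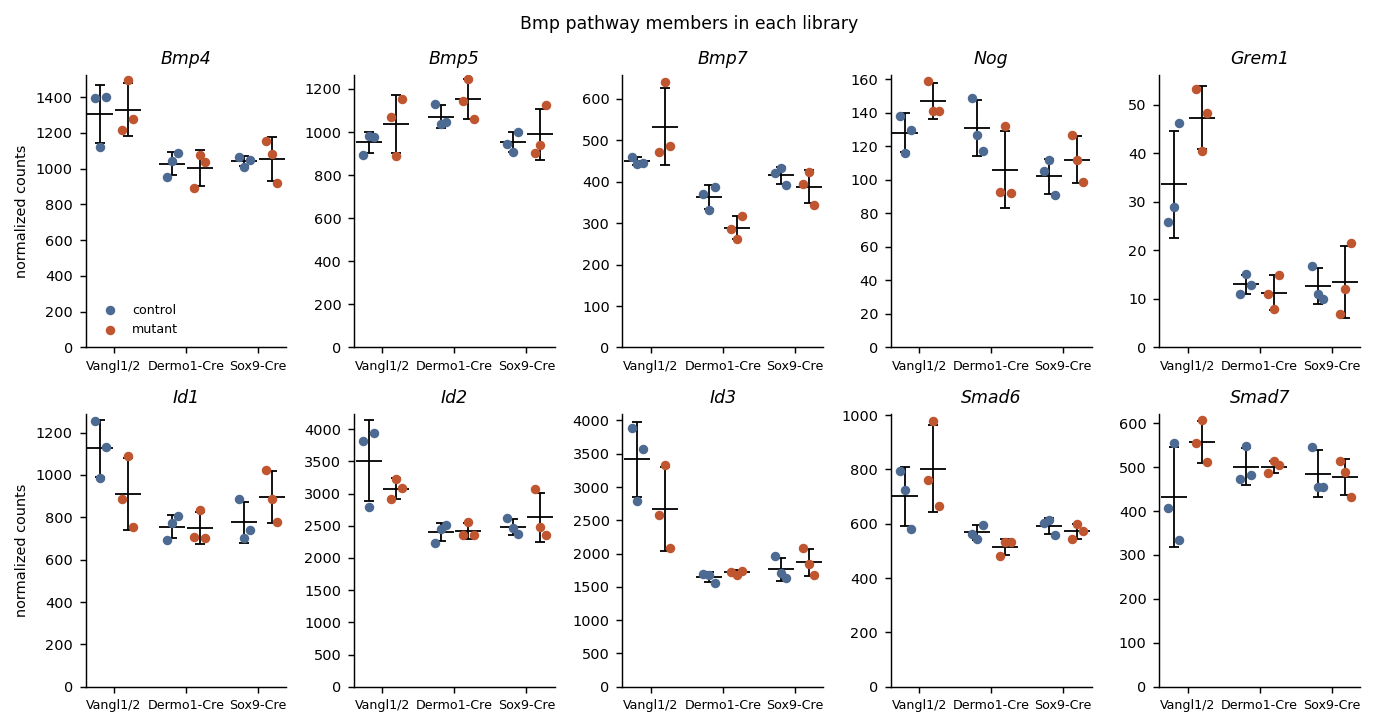
Normalized counts (vertical axis, from 0) of the 10 genes in each library of the 3 experiments. Points are libraries, blue for control and orange for mutant, and lines are the mean ± SD of 3 libraries. Bmp7 lies lower in all 3 Dermo1Cre mutants than in their controls, and most other panels overlap.

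Among the ligands, Bmp7 gave the clearest separation, and its difference had opposite signs in both experiments at E12.5. The gene lies at chr2:172868012-172940321 on the minus strand (GENCODE M21, GRCm38, the build also called mm10), and in the lung it is known mainly from the epithelium. With Dermo1Cre it stood at 371, 332 and 388 normalized counts in the controls and at 287, 263 and 318 in the mutants. All 3 mutants lay below all 3 controls. The log2 difference was -0.33 (SE 0.095, 95% interval -0.54 to -0.12), a level of 0.795 of that in controls. The unadjusted p was 0.00628 and the adjusted p 0.324 (limma), and the adjusted p stayed between 0.211 and 0.861 over the alternatives. Leaving out each library in turn moved the difference between -0.40 and -0.26.

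Markers of several cell types moved with the Dermo1Cre mutants. Of all genes tested, 5.42% were higher and 4.76% lower at an unadjusted p under 0.05. The summed normalized count of 10 epithelial markers was 20760 to 22472 in controls and 19515 to 20225 in mutants, without overlap, and 6 of the 10 were lower at an unadjusted p under 0.05. All 6 smooth muscle markers were lower at that level, with sums of 10992 to 15333 in controls and 7338 to 11787 in mutants. All 6 neuronal markers were higher, with sums of 376 to 696 in controls and 883 to 2130 in mutants. Lung mesenchymal markers were lower for 3 of 9, with overlapping sums of 63546 to 76051 and 56668 to 65752. Cardiomyocyte markers were lower for 1 of 11, with overlapping sums of 1495 to 21805 in controls and 1002 to 4680 in mutants. The summed ribosomal protein genes were lower without overlap, at 665496 to 680844 in controls and 622829 to 665441 in mutants, with 15 of 72 lower and 3 higher. Of the mesothelial markers, which include Wt1 and Upk3b, 0 of 5 tested stood out, and Msln was listed at 0 in at least 1 library. The part of these lists in the Bmp7 difference was not tested.

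In Vangl1-/-; Vangl2-/- lungs, Bmp7 was at 473, 640 and 487 normalized counts against 461, 444 and 445 in controls. The mutants lay above the controls, but mutant replicate 1 exceeded control replicate 1 by few counts and replicate 2 alone was far higher. The log2 difference was 0.23 (SE 0.135, limma, adjusted p = 0.321) and was 0.10 without mutant replicate 2. It was 0.22 without control replicate 2 (adjusted p = 0.204) and 0.21 with the length trend removed (adjusted p = 0.597). With Sox9Cre, Bmp7 was at 422, 433 and 393 in controls and 395, 423 and 344 in mutants, and the groups overlapped (log2 difference -0.11, 95% interval -0.32 to 0.11).

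Bmp4, the ligand of the bud tips, had a log2 difference within 0.04 of 0 in each experiment when all 6 libraries were used. In the Vangl1/2 experiment it stood at 1397, 1119 and 1398 normalized counts in controls and 1215, 1496 and 1275 in mutants. With Dermo1Cre the values were 956, 1044 and 1085 against 889, 1079 and 1038, and with Sox9Cre 1065, 1010 and 1048 against 1157, 1084 and 921. Controls and mutants overlapped in each experiment. The log2 differences were 0.03, -0.04 and 0.01, and their 95% intervals reached from -0.27 to 0.32, from -0.22 to 0.14 and from -0.18 to 0.21, so that changes of up to 1.25-fold, 1.10-fold and 1.15-fold upward lay within them. For Vangl1/2 the difference was -0.079 without control replicate 2 (limma, adjusted p = 0.529) and 0.20 with the length trend removed (adjusted p = 0.526).

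Bmp5, a ligand of the lung mesenchyme, had mean differences above 0 in all 3 experiments, and none passed the test. Its values were 895, 983 and 976 normalized counts in Vangl1/2 controls and 1071, 890 and 1152 in mutants. With Dermo1Cre the values were 1131, 1039 and 1046 against 1146, 1248 and 1061, and with Sox9Cre 945, 909 and 1002 against 904, 938 and 1124. The groups overlapped throughout, with log2 differences of 0.12 (SE 0.118), 0.10 (SE 0.066) and 0.05 (SE 0.088), and adjusted p of 0.557, 0.625 and 1.0 (limma). The first was 0.14 without control replicate 2 and 0.082 with the length trend removed.

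The antagonists were the least abundant of the 10 genes. Nog encodes Noggin, which binds Bmp ligands and keeps them from their receptors. Values were 138, 116 and 130 normalized counts in Vangl1/2 controls and 159, 141 and 141 in mutants. The groups did not overlap, by a narrow margin, and the log2 difference was 0.20 (SE 0.142, limma, adjusted p = 0.413). It was 0.13 without control replicate 2 (adjusted p = 0.522), 0.43 with the length trend removed (adjusted p = 0.512) and 0.47 with both (adjusted p = 0.0598). The adjusted p of Nog lay between 0.0598 and 0.681 over the alternatives that gave one, and 1 alternative gave none. With Dermo1Cre, Nog was at 149, 127 and 117 in controls and 92.8, 132 and 91.9 in mutants. Mutant replicates 1 and 3 lay below all controls and replicate 2 lay among them, which gave a log2 difference of -0.33 (SE 0.169, limma, adjusted p = 0.537). With Sox9Cre the values were 105, 112 and 90.8 against 127, 112 and 98.4, and the log2 difference was 0.13 (SE 0.143).

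Grem1, which encodes Gremlin, rested on few reads. Values were 25.8, 28.9 and 46.2 normalized counts in Vangl1/2 controls and 53.3, 40.4 and 48.3 in mutants. The groups overlapped through control replicate 3, and the log2 difference was 0.52 (SE 0.271, limma, adjusted p = 0.29), the largest of the 10 in that experiment and the one with the largest SE. It was 0.43 without control replicate 2 (adjusted p = 0.269) and 0.45 with the length trend removed (adjusted p = 0.605). With Dermo1Cre it was at 11.0, 15.1 and 12.9 against 11.1, 7.94 and 15.0, and with Sox9Cre at 16.8, 11.0 and 9.98 against 6.83, 12.1 and 21.5. Its 95% interval with Sox9Cre ran from -1.03 to 1.02, so that changes of up to 2.02-fold upward, or down to 0.489 of the control level, lay within it.

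Smad6 blocks Bmp receptors and Smad1 preferentially, and Smad7 blocks Bmp and Tgf-beta receptors alike. Smad7 had the second largest difference in Vangl1-/-; Vangl2-/- lungs. It was at 407, 556 and 334 normalized counts in controls and 555, 607 and 511 in mutants. Control replicate 2 lay within the mutants and the other controls lay below them. The log2 difference was 0.39 (SE 0.183, limma, adjusted p = 0.257). Without control replicate 2 it was 0.59 (limma, adjusted p = 0.00279), with the length trend removed 0.30 (adjusted p = 0.559), and with both 0.46 (adjusted p = 0.0309). Of all genes tested, 43.6% were called without control replicate 2 and 14.1% with both changes. Over the alternatives that gave one, the adjusted p of Smad7 lay between 0.00279 and 0.601, and 1 alternative gave none.

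In the Wnt5a experiments Smad7 stayed within its spread. It was at 473, 549 and 481 normalized counts in Dermo1Cre controls and 486, 513 and 505 in mutants, and at 547, 455 and 454 in Sox9Cre controls and 513, 488 and 433 in mutants. The log2 differences were 0.005 (SE 0.073) and -0.02 (SE 0.099).

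Smad6, whose promoter is printed above, was lower in the Dermo1Cre mutants by less than Bmp7. It was at 563, 545 and 596 normalized counts in controls and 482, 533 and 532 in mutants, without overlap. The log2 difference was -0.14 (SE 0.067, limma, adjusted p = 0.512), a level of 0.907 of that in controls. For Vangl1/2 it was at 795, 725 and 582 against 763, 980 and 667 (log2 difference 0.19, SE 0.171; 0.22 without control replicate 2 and 0.24 with the length trend removed), and with Sox9Cre at 602, 613 and 560 against 543, 600 and 572 (-0.05, SE 0.069). The groups overlapped in both.

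Id1, Id2 and Id3 encode helix-loop-helix proteins without a DNA-binding region, which hold other transcription factors off DNA, and their transcripts are common readouts of Bmp signaling. All 3 had lower means in Vangl1-/-; Vangl2-/- lungs, and all 3 passed the test when control replicate 2 was left out and not otherwise among the libraries left out in turn. Id1 was at 1255, 987 and 1133 normalized counts in controls and 886, 1089 and 755 in mutants. Id2 was at 3813, 2788 and 3939 against 2916, 3234 and 3087. Id3 was at 3880, 2790 and 3578 against 2586, 3337 and 2083. For each of them control replicate 2 was the lowest control and mutant replicate 2 the highest mutant. For Id1 and Id3 the overlap lay between these libraries. For Id2 it came from control replicate 2 alone, which lay below all 3 mutants.

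The log2 differences were -0.32 for Id1 (SE 0.153), -0.17 for Id2 (SE 0.140) and -0.37 for Id3 (SE 0.188), with adjusted p of 0.268, 0.461 and 0.282 (limma). Without control replicate 2 they were -0.41, -0.33 and -0.51, with adjusted p of 0.0321, 0.00326 and 0.0226. These 3 genes and Smad7 were then called, 4 of 10, and 6180 of all genes tested were called with them. That was 43.6% of all genes tested, near the share of the 10 genes. With the length trend removed over all 6 libraries, the differences were 0.03, -0.05 and -0.05, with adjusted p of 0.95, 0.869 and 0.907. With the trend removed and control replicate 2 left out they were 0.08, -0.16 and -0.05 (adjusted p = 0.709, 0.148 and 0.846), and of the 10 genes Smad7 alone was called, beside 14.1% of all genes. Over all alternatives the adjusted p lay between 0.0321 and 0.95 for Id1, 0.00326 and 0.869 for Id2, and 0.0226 and 0.907 for Id3.

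Other lists moved in Vangl1-/-; Vangl2-/- lungs, counted here by genes with an unadjusted p under 0.05. At that level, 12.0% of all genes tested were higher and 8.56% lower. Of the ribosomal protein genes, 52 of 72 were lower and 0 higher. Smooth muscle markers were lower for 4 of 6, with overlapping sums of 8279 to 12230 in controls and 6459 to 9615 in mutants. Mesothelial markers were higher for 3 of 5 (2758 to 4044 against 3874 to 6263), and lung mesenchymal markers were higher for 3 of 9 and lower for 1 (37123 to 85286 against 62493 to 80488). The part of these in the Id and Smad7 differences was not tested.

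Of the 10 genes, Id1 and Id3 have the shortest exon lengths. Id1 lies at chr2:152736251-152737410 on the plus strand, Id2 at chr12:25093799-25097140 on the minus strand and Id3 at chr4:136143497-136145755 on the plus strand. Their exons covered 1160 bases (Id1), 1278 bases (Id3) and 2438 bases (Id2), whereas those of Smad7 covered 4379 bases and those of Grem1 4148 bases. The shortest pair had the most negative differences of the 10 and the longest pair the most positive. Between these ends, in order of length, Nog (1695 bases), Bmp4 (2064 bases) and Id2 (2438 bases) had differences of 0.198, 0.028 and -0.175. Smad6 (2971 bases), Bmp7 (3670 bases) and Bmp5 (3822 bases) followed, with 0.19, 0.233 and 0.118. Apart from removal of the trend, the part of exon length in these differences was not tested. Id4, another gene of the Id family outside the 10, was at 319, 371 and 231 normalized counts in controls and 362, 366 and 377 in mutants. Its log2 difference was 0.29 (SE 0.173, limma, adjusted p = 0.336), opposite in sign to those of Id1, Id2 and Id3. Without control replicate 2 its difference was 0.44 and passed the test (limma, adjusted p = 0.0286), as 43.6% of all genes tested did. With the length trend removed it was 0.25 (adjusted p = 0.611).

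**Figure D2:**
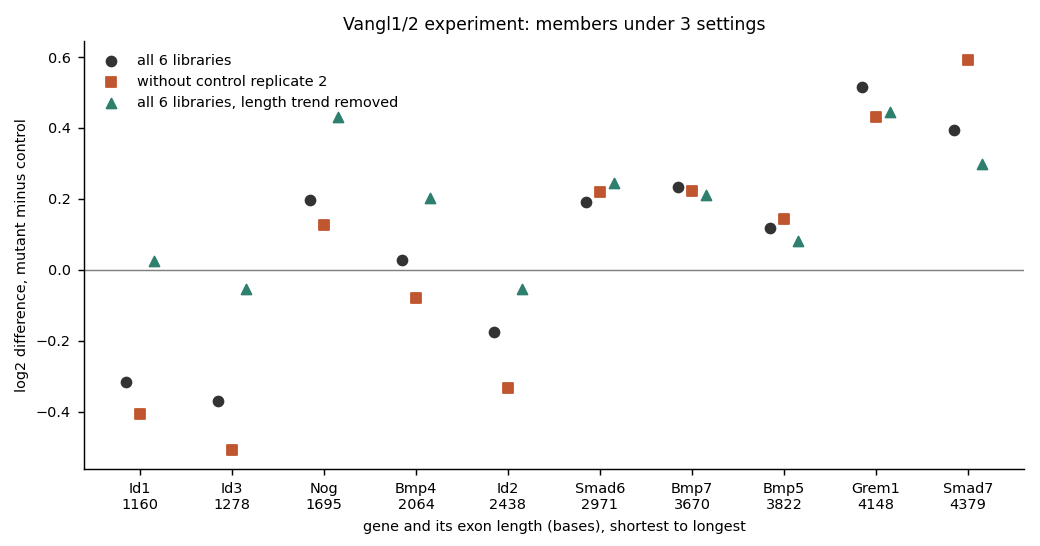
Log2 difference between Vangl1-/-; Vangl2-/- and control lungs (vertical axis) for the 10 genes, ordered from the shortest to the longest exon length in bases (horizontal axis). Circles use all 6 libraries, squares leave out control replicate 2, and triangles have the trend on length removed. Id1 and Id3 lie lowest as circles and squares and near 0 as triangles, and Smad7 lies above 0 in each setting.

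With Dermo1Cre, the Id genes differed little. Id1 was at 694, 771 and 804 normalized counts in controls and 709, 836 and 704 in mutants. Id2 was at 2240, 2455 and 2512 against 2350, 2566 and 2358, and Id3 at 1692, 1686 and 1560 against 1723, 1684 and 1744. The groups overlapped for each of them. Differences of -0.02 (Id1), 0.01 (Id2) and 0.06 (Id3) had 95% intervals from -0.20 to 0.17, from -0.11 to 0.14 and from -0.04 to 0.17. The lower bounds stand for 0.872, 0.926 and 0.971 of the control level.

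With Sox9Cre, Id1 was at 885, 704 and 739 normalized counts in controls and 1024, 885 and 778 in mutants. Id2 was at 2619, 2462 and 2365 against 3066, 2475 and 2359, and Id3 at 1958, 1708 and 1631 against 2078, 1839 and 1684. Mutant replicate 1 was the highest of the 6 libraries for all 3 Id genes, and for Bmp4 and Nog as well. The log2 difference of Id1 was 0.20 (SE 0.117, limma, adjusted p = 1.0) and was 0.10 without that library. Those of Id2 and Id3 were 0.08 (SE 0.095) and 0.08 (SE 0.093), and were -0.04 and 0.00 without it. Cardiomyocyte markers were lower in these mutants, 9 of 11 at an unadjusted p under 0.05, with sums of 5834 to 19720 in controls and 1142 to 6396 in mutants. These sums overlapped. The sums of lung mesenchymal, endothelial and mesothelial markers were lower without overlap, at 67959 to 82201 against 60761 to 67528, 16405 to 16733 against 15889 to 16104, and 3416 to 4027 against 2746 to 3400. Of their genes, 2 of 9, 1 of 11 and 3 of 6 were lower at that level, as were 2.81% of all genes tested. The part of these cells in the Id values was not tested.

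**Figure D3:**
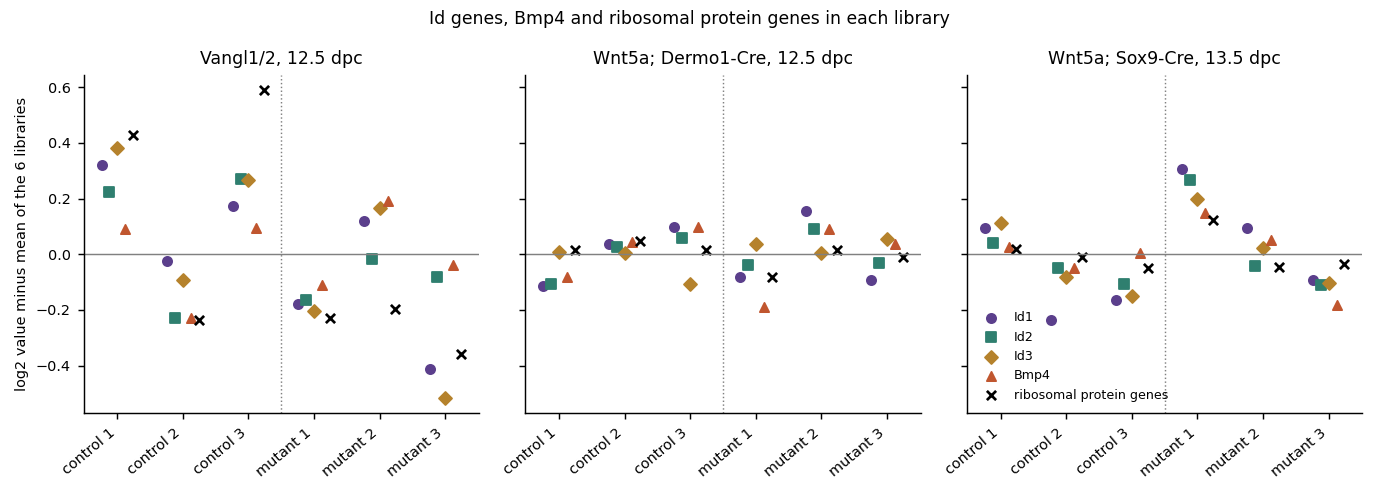
Log2 value minus the mean of the 6 libraries (vertical axis) for Id1, Id2, Id3, Bmp4 and the summed ribosomal protein genes in each library (horizontal axis), 1 panel for each experiment, with controls left of the dotted line. In the Vangl1/2 experiment control replicate 2 lies below the other controls for all 5 series, and with Sox9Cre mutant replicate 1 lies highest.

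Because each experiment has its own controls, differences between the mutant effects were tested in a joint fit of all 18 libraries over 13980 genes. All groups share 1 estimate of the spread for each gene, so the SE of a gene is the same in all 3 pairs. The spreads differed between experiments, and fitted separately the SE of Id3 was 0.188 with Vangl1/2 and 0.047 with Dermo1Cre. None of the 10 genes passed an adjusted p of 0.05 in any of the 3 pairs of experiments (limma; 0.0143% of genes passed for Vangl1/2 minus Dermo1Cre, 0.0143% for Vangl1/2 minus Sox9Cre and 0.0% for Dermo1Cre minus Sox9Cre). The Bmp7 effect was 0.56 higher on the log2 scale in the Vangl1/2 than in the Dermo1Cre experiment (SE 0.159, unadjusted p = 0.00258, adjusted p = 0.252), beside 17.3% of all genes at an unadjusted p under 0.05. Nog and Id3 were the other members at that level for this pair, with 0.52 (SE 0.216, adjusted p = 0.258) and -0.43 (SE 0.199, adjusted p = 0.282). With the length trend removed, the differences were 0.54 for Bmp7 (adjusted p = 0.392), 0.72 for Nog (adjusted p = 0.392) and -0.16 for Id3 (adjusted p = 0.72).

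Between the Vangl1/2 and Sox9Cre experiments, the Id1 effect differed by -0.52 (SE 0.191, limma, adjusted p = 0.158), that of Id3 by -0.45 (SE 0.199, adjusted p = 0.182) and that of Bmp7 by 0.34 (SE 0.159, adjusted p = 0.197). All 3 had an unadjusted p under 0.05, as did 25.1% of all genes. With the length trend removed they were -0.17 for Id1 (adjusted p = 0.643), -0.13 for Id3 (adjusted p = 0.739) and 0.33 for Bmp7 (adjusted p = 0.383). Between Dermo1Cre and Sox9Cre none of the 10 did, against 2.63% of all genes. Without control replicate 2 of the Vangl1/2 experiment, 4 of the 10 genes were called in each pair that involves it, beside 32.8% and 39.3% of all genes tested. These were Bmp7 (0.55, adjusted p = 0.0169), Id2, Id3 and Smad7 against Dermo1Cre, and Id1 (-0.61, adjusted p = 0.0169), Id2, Id3 and Smad7 against Sox9Cre.

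**Figure D4:**
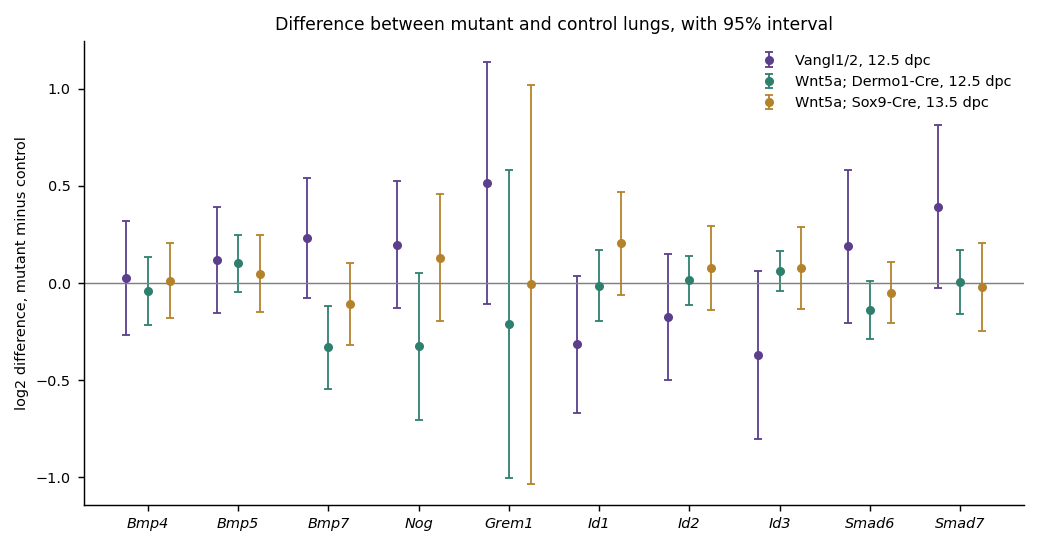
Log2 difference between mutant and control lungs (vertical axis) for the 10 genes in the 3 experiments, with points for the estimate and bars for the 95% interval from limma. All intervals include 0 apart from that of Bmp7 with Dermo1Cre, which runs from -0.54 to -0.12.

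Levels of the 10 genes, compared per kilobase of exon length, kept nearly 1 order in all control groups. In Dermo1Cre controls the mean was 1290 normalized counts per kilobase for Id3, 985 for Id2, 652 for Id1 and 498 for Bmp4. It was 281 for Bmp5, 191 for Smad6, 114 for Smad7, 99.1 for Bmp7, 77.4 for Nog and 3.13 for Grem1. No neighbours in that order overlapped between libraries. Bmp7 and Smad7 changed places in the other controls, at 123 and 98.8 in the Vangl1/2 experiment and 113 and 111 with Sox9Cre, where they overlapped. In Vangl1/2 controls Bmp5 and Smad6 overlapped as well, as did Smad7 and Nog.

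Across experiments, which were scaled separately and cannot be tested against each other here, levels are given as CPM, recovered reads scaled to the reads on genes of each library. Grem1 was at 1.31 to 2.77 CPM in the 6 libraries of the Vangl1/2 experiment and at 0.43 to 1.30 in the 12 libraries of the Wnt5a experiments. Id3 was at 111 to 197 CPM in the first and 97.8 to 131 in the others. Bmp4 overlapped among the 3 experiments, at 60.6 to 78.9, 55.3 to 68.0 and 55.4 to 72.9. Experiment, genotype and stage cannot be told apart in these values.

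The other genes of the pathway were taken from a list of 63 ligands, receptors, antagonists, Smads and targets, of which 56 were tested in each experiment and 0 passed an adjusted p of 0.05. In the Vangl1/2 experiment, 12 of 56 were higher and 0 lower at an unadjusted p under 0.05, beside 12.0% of all genes higher and 8.56% lower. Receptors and co-receptors made up 7 of the 12: Bmpr1a, Bmpr1b, Bmpr2, Acvr2a, Acvr2b, Tgfbr3 and Neo1. The other 5 were Smad3, Smad5, Smad9, Ski and Crim1. Of the 56 genes, 14 did not overlap between groups, all higher, beside 13.6% of all genes higher and 8.68% lower. The median difference of the 12 receptors and co-receptors tested was 0.31, with all 12 above 0, against -0.01 for all genes tested, and it was 0.13 with the length trend removed and 0.43 without control replicate 2. For the 10 genes described here the median was 0.15, with 0.21 and 0.13 under these settings.

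Bmpr2, the main type II Bmp receptor, was at 307, 668 and 369 normalized counts in controls and 769, 846 and 918 in mutants. The mutants lay above the controls, and control replicate 2 was the nearest to them. The log2 difference was 0.99 (SE 0.259, limma, adjusted p = 0.233), 0.41 with the length trend removed (adjusted p = 0.512) and 1.32 without control replicate 2 (adjusted p = 5.9e-05). Acvr2b, another type II receptor, was at 141, 161 and 128 against 223, 206 and 189 (0.52, SE 0.144), and 0.51 with the length trend removed. Tgfbr3, the co-receptor betaglycan, had a difference of 0.62 (SE 0.170) and Smad3, a Smad of Tgf-beta and activin signaling, one of 0.37 (SE 0.106). The adjusted p was 0.233 for these 3 genes. With the length trend removed, Tgfbr3 was at 0.37 and Smad3 at 0.20 (adjusted p = 0.512 for all 3). All 3 passed without control replicate 2 (adjusted p = 0.00631 for Acvr2b, 0.00016 for Tgfbr3 and 0.000331 for Smad3). They and Bmpr2 also passed with both changes, at adjusted p of 0.021, 0.00822, 0.0235 and 0.0187. Of all genes tested, 43.6% were called without control replicate 2 and 14.1% with both changes. These 4 genes were named for their small unadjusted p in this same experiment.

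**Figure D5:**
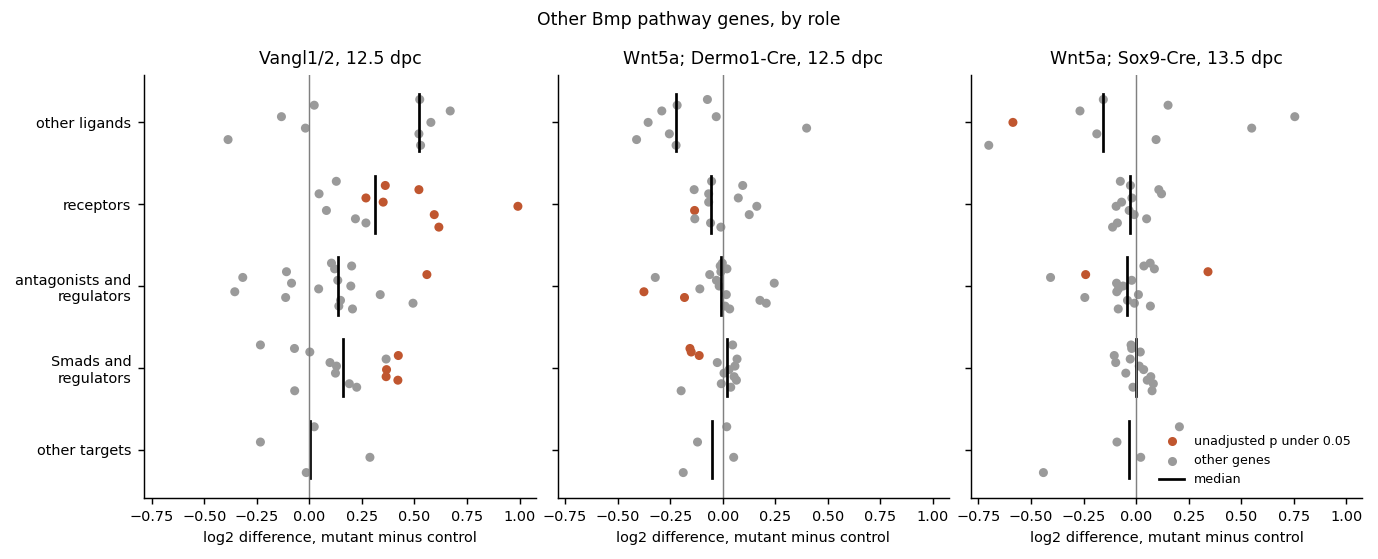
Log2 difference between mutant and control lungs (horizontal axis) for the 56 other pathway genes tested, by role (vertical axis), 1 panel for each experiment. Points are genes, orange where the unadjusted p was under 0.05, and black lines are medians. In the Vangl1/2 panel all 12 receptors and co-receptors lie above 0, and the Dermo1Cre and Sox9Cre medians of Smads and regulators lie near 0.

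With Dermo1Cre, 6 of the 56 were lower and 0 higher at an unadjusted p under 0.05, beside 4.76% of all genes lower and 5.42% higher. Ctdnep1, a phosphatase that dampens Bmp signaling, was at 1890, 1974 and 1929 normalized counts in controls and 1681, 1748 and 1770 in mutants (log2 difference -0.16, SE 0.042, limma, adjusted p = 0.301). Ski, a corepressor of Smads, had a difference of -0.11 (SE 0.038, adjusted p = 0.407), and the secreted proteins Nbl1 and Htra1 had -0.18 (SE 0.067) and -0.38 (SE 0.144). Eng and Pmepa1 were the other two. Of the 56 genes, 7 did not overlap between groups (these 6 and Tll1, which was higher), beside the 15.6% of all genes given above.

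With Sox9Cre, 1 of the 56 was higher (Chrdl1, an antagonist of the chordin family) and 2 lower (Gdf10 and Crim1), beside 1.08% and 2.81% of all genes. Gdf10, a ligand also known as Bmp3b, was at 618, 431 and 419 normalized counts in controls and 308, 317 and 337 in mutants, without overlap. The log2 difference was -0.59 (SE 0.142, limma, adjusted p = 1.0). Crim1 had -0.24 (SE 0.082), Chrdl1 0.34 (SE 0.135) and Ski -0.10 (SE 0.047). Of the 56 genes, 9 did not overlap between groups (4 higher and 5 lower), beside 4.42% of all genes higher and 4.36% lower. The 7 genes not tested, Bmp8a, Bmp10, Gdf7, Chrdl2, Tll2, Msx1 and Dlx5, were below the filter in all 3 experiments. Bmp10, a ligand of heart muscle, was at 0, 13.9 and 51.9 normalized counts in Sox9Cre controls and at 0 in all mutants with Sox9Cre. The groups overlapped. With Dermo1Cre it was at 0, 0 and 35.7 in controls and at 0 in all mutants. In the same order of controls, the summed cardiomyocyte markers were 5834, 9102 and 19720 with Sox9Cre and 1495, 7286 and 21805 with Dermo1Cre. In mutants the sums were 1142 to 6396 with Sox9Cre and 1002 to 4680 with Dermo1Cre. The part of heart muscle in the Bmp10 values was not tested.

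Within groups, the Id genes and Bmp4 varied together between libraries. Over 18 libraries, each centred on its group mean, Id1 correlated with Id3 at Pearson's r = 0.825, with Bmp4 at 0.792 and with Id2 at 0.713. Bmp4 correlated with Id2 at 0.823 and with Id3 at 0.651. Correlations with the target genes Smad6 and Smad7 were lower, at 0.274 and -0.084 for Bmp4 and at 0.48 and 0.235 for Id1. Among 13980 genes, those most like Bmp4 were Map2k3 (0.919), Klhl22 (0.912) and Gpr180 (0.909), and those most like Id1 were Hey1 (0.918), Scamp3 (0.904) and Itm2c (0.899). Bmp5 ran against both, at -0.593 with Bmp4 and -0.605 with Id1. These correlations describe libraries that share an experiment, a depth and, with Vangl1/2, the length trend, and no p is given.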

How the data were processed

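Bulk RNA-Seq libraries of embryonic lungs were run on Illumina instruments. Per the labels and the submitters' processing notes, the authors used Trim Galore, HISAT2, featureCounts, DESeq2 and the mm10 build, with versions not given in the sources used here. The files that the authors deposited, 1 for each experiment, list 23420 genes with a normalized signal per library, which is the gene count divided by a size factor. The tables also hold a mean over the libraries, log2 fold changes and p-values of the authors' own comparison, which were not used. Values were whole multiples of 1 step per library (largest deviation 3.74e-05 reads, tolerance 0.01), so reads were recovered in all 18 libraries, with size factors of 0.952 to 1.073. A value of 10 thus rests on about 10 reads. Of the names, 27 in each file had become dates and 2 were listed more than once.

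Each experiment was fitted on its own with limma (version 3.58.1, R 4.3.3) and a mean-variance trend on log2(normalized count + 1), so that fold changes of low genes are understated. A gene was tested if 3 or more of the 6 libraries had 10 or more normalized counts, with Benjamini-Hochberg adjustment over all genes tested and a threshold of 0.05. The number tested was 14303 genes in the Vangl1/2 experiment, 14277 with Dermo1Cre and 14293 with Sox9Cre. Differences between experiments were contrasts of 6 group means over 18 libraries. Intervals are 95% intervals. Alternatives were edgeR's quasi-likelihood test (version 4.0.16) and DESeq2 (version 1.42.0) on the recovered reads, TMM scaling, pseudocounts of 0.5 and 5, no filter, 1 fit of all 18 libraries, a replicate block, removal of a smooth trend on exon length, and leaving out each library in turn. Exon lengths came from GENCODE release 21 for the mouse, which gave a length for 98.4% of names. Removal of the length trend together with leaving out control replicate 2 was chosen after seeing the data. The procedure was also run on simulated reads, drawn independently for each gene and without a length trend. The outcome is not given here, and such data cannot show how the procedure handles that trend or control replicate 2.

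The 10 genes, the list of 63 other pathway genes and the marker lists were chosen with earlier results of these data known. In each experiment the text names all 10 genes and the 4 other pathway genes with the smallest unadjusted p, together with genes called at an adjusted p under 0.05. Id4, Eng, Pmepa1, Tll1, Bmp10 and the rest of the pathway genes counted at an unadjusted p under 0.05 were named after their values were seen. For Bmp4 and Id1 the 3 genes with the highest Pearson correlation were named. Tables and figures were made with Python (version 3.11.15).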

Additional observations from a re-analysis of the deposited data

How the results depend on the processing

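In the Vangl1/2 experiment 1 gene was called, against 11 by DESeq2, 3233 in 1 fit of all 18 libraries, 0 with the replicate block, 1983 with the length trend removed and control replicate 2 left out (1 of them among the 10 genes), and 0 to 6180 when each library was left out in turn (0 to 4 of the 10 genes). With Dermo1Cre 2 genes were called, against 101 by DESeq2, 0 in the fit of all 18 libraries, 16 with the replicate block and 0 to 52 when each library was left out. With Sox9Cre limma called 0 genes (557 at an unadjusted p under 0.05), against 9 by DESeq2 and 0 to 13 when each library was left out. The effects of Vangl1/2 and Dermo1Cre differed for 2 genes (1 with the replicate block, 1 to 4580 without each library, 0 to 4 of the 10 genes), those of Vangl1/2 and Sox9Cre for 2 (1 with the block, 1 to 5501, 0 to 4 of the 10), and those of Dermo1Cre and Sox9Cre for 0 (0 to 18). The highest values for comparisons with Vangl1/2 came without its control replicate 2, those for Dermo1Cre without mutant replicate 1 and those for Sox9Cre without mutant replicate 1. Replicate numbers did not pair the samples (correlations of same-numbered libraries from -0.223 to 0.303), and the block called none of the 10 genes.

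Signs turned in the following cases. Id1 in the Vangl1/2 experiment (-0.32 with all 6 libraries) and Grem1 with Dermo1Cre (-0.21) were the largest of the differences within an experiment that turned. With the length trend removed, Id1 was at 0.025 in the Vangl1/2 experiment (0.082 without control replicate 2) and 0.033 with Dermo1Cre, Smad7 was at -0.004 with Dermo1Cre, and the difference of effects was -0.02 for Bmp5 (Vangl1/2 minus Dermo1Cre) and 0.032 for Id3 (Dermo1Cre minus Sox9Cre). Smad7 with Dermo1Cre was at -0.0 by edgeR, and Grem1 with Sox9Cre was at 0.087 by edgeR, 0.093 by DESeq2 and 0.013 with a pseudocount of 5. When each library was left out, the range of log2 differences was -0.079 to 0.09 for Bmp4 in the Vangl1/2 experiment. With Dermo1Cre it was -0.096 to 0.043 for Bmp4, -0.42 to 0.001 for Grem1, -0.096 to 0.03 for Id1, -0.036 to 0.047 for Id2 and -0.035 to 0.072 for Smad7. With Sox9Cre it was -0.059 to 0.106 for Bmp4, -0.046 to 0.111 for Bmp5, -0.39 to 0.37 for Grem1, -0.037 to 0.152 for Id2, -0.0 to 0.156 for Id3 and -0.074 to 0.069 for Smad7. For differences of effects, Vangl1/2 minus Dermo1Cre, it was -0.038 to 0.13 for Bmp4 and -0.063 to 0.123 for Bmp5. For Vangl1/2 minus Sox9Cre it was -0.09 to 0.087 for Bmp4, -0.011 to 0.175 for Bmp5 and -0.022 to 0.16 for Nog. For Dermo1Cre minus Sox9Cre it was -0.146 to 0.031 for Bmp4, -0.009 to 0.147 for Bmp5, -0.58 to 0.18 for Grem1, -0.138 to 0.051 for Id2, -0.094 to 0.062 for Id3 and -0.064 to 0.093 for Smad7. The cause of these turns was not tested. Grem1 had at most 53.3 normalized counts in any library.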
